A study of Mus musculus with 4 samples.

Results

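The Arp2/3 complex subunits are described here in basal epidermal cells of mouse embryos, with and without a conditional deletion of Srf. The members were the 9 genes Actr2, Actr3, Arpc1a, Arpc1b, Arpc2, Arpc3, Arpc4, Arpc5 and Arpc5l, taken with every probe set that carries their symbol in the platform annotation. This gave 16 of the 45037 probe sets that are not controls. Of the 16, 14 carried the symbol of 1 member alone, and these covered 6 genes: Actr3, Arpc1a, Arpc2, Arpc4, Arpc5 and Arpc5l. The other 2 probe sets were listed for both Arpc1b and Gm5637, a pseudogene on another chromosome, so their signal cannot be assigned to Arpc1b alone. For Actr2 and Arpc3 no probe set carried the symbol in the annotation used, and their expression was not analysed here. Above the filter on low signal (a signal of 65.9, the median over all probe sets) lay 12 of the 16 probe sets, among them 11 of the 14 with 1 symbol, and 4 lay below it.

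The study compared 2 cKO with 2 het samples, 1 array each, from embryos at E16.5. In cKO both Srf alleles were floxed (SRF fl/fl). In het 1 allele was floxed and 1 was intact (SRF fl/+), and the design text calls these samples WT. All embryos carried K14-Cre, which expresses Cre from the keratin 14 promoter in basal keratinocytes, and a floxed YFP reporter at ROSA26, and the cells were sorted on α6 integrin and YFP. The sample titles share numbers across the groups: het_1210 and Ko_1210 carry the first number, het_1261 and KO_1261 the second. No label says what the numbers mark, nor whether a sample is 1 embryo or a pool, so the spread between samples may be in part technical.

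The Arp2/3 complex starts a new actin filament as a branch on the side of an existing one. Actr2 (Arp2) and Actr3 (Arp3) resemble actin and form the first subunits of the branch, Arpc2 and Arpc4 form the core that grips the older filament, Arpc1 binds the activating proteins, and Arpc3 and Arpc5 hold the parts together. Arpc1a and Arpc1b, and likewise Arpc5 and Arpc5l, are alternative versions of 1 position. The complex is switched on by WASP and WAVE family proteins downstream of Cdc42 and Rac. In the epidermis it is known for its role in cell junctions and in the formation of the barrier. Srf encodes serum response factor, which binds DNA at the CArG box and controls many genes of the actin cytoskeleton, together with MRTF coactivators or with ternary complex factors of the ETS family.

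Promoter sequences show which members have such a motif near their start. RefSeq promoters (GRCm38.p6) were at hand for 8 of the 9 members, Arpc5l having no entry in the table. In the 250 bases before the start, both strands were searched for the CArG box and for CCGGAAGT, a motif of ETS family factors, which do not overlap each other in the sequences shown. Of the 8 member promoters, 1 held a CArG box, that of Arpc4, against 1.47% of the 32851 promoters counted. For this count 1 chromosome was left out, and entries of a gene with the same start were taken once. CCGGAAGT or its reverse complement stood in 4 of the 8 (Actr3, Arpc1a, Arpc3 and Arpc4), against 2.88% of the promoters counted. In Arpc4 the CArG box ended 241 bases and the other motif 5 bases before the start, counting the base next to the start as 1. The Arpc4 promoter is shown whole, since it alone held both, with the motifs in capitals (chr6:113377863-113378112, plus strand).
Arpc4: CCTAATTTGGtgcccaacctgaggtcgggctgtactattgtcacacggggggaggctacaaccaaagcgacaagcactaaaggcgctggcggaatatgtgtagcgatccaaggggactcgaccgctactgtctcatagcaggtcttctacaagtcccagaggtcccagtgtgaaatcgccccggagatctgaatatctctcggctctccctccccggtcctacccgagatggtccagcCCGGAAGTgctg
The stretches around the ETS family motif in Actr3 (chr1:125435728-125435755, minus strand), Arpc1a (chr5:145083823-145083868, plus strand) and Arpc3 (chr5:122391847-122391877, plus strand) are shown to compare its place.
Actr3: ctcgctcctcccacccggaaCCGGAAGT
Arpc1a: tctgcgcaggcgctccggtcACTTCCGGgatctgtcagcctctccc
Arpc3: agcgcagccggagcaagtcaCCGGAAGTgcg
For comparison, the CArG boxes before Srf itself (chr17:46556195-46556264, minus strand), Actg1 (chr11:120348556-120348605, minus strand) and Cnn2 (chr10:79988524-79988573, plus strand) are shown in capitals. Actg1 encodes cytoplasmic γ-actin and Cnn2 encodes calponin 2. They belong to a list of Srf and known target genes, in which 4 of 6 promoters with an entry held the box. CCGGAAGT or its reverse complement stood in 1 of these 6.
Srf: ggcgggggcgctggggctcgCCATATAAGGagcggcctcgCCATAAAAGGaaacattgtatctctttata
Actg1: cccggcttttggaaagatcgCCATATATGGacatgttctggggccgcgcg
Cnn2: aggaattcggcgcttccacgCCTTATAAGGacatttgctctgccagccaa
A match is a description of these letters and does not show binding. The 32851 promoters counted were not matched to the members in base content, and the shares were not tested. Beyond this window nothing was searched.

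Arp2/3 subunit transcripts differed little between cKO and het. Srf and known target genes, named below and chosen with earlier results of these data known, were lower. Over the 6 Arp2/3 genes, each represented by its brightest probe set, the median difference, cKO minus het, was -0.043 on the log2(signal + 1) scale. It was -0.036 within the first number and 0.0036 within the second. The median over all 11053 tested genes was -0.024. The largest of the 6 differences was that of Arpc4, at -0.24, and the smallest in size was that of Arpc2, at -0.015. In 5 of the 6 genes the difference was under 0.2 in size, as in 59.2% of all tested genes and 71.4% of those with a mean signal of 1000 or more. Of the 6 genes 5 were lower and 1 was higher, where 53.8% of all tested genes were lower, with 4 lower under quantile normalization and 1 under median centring of the arrays. Median centring raised every difference alike, and the median of all tested genes to 0.098. In limma without a block, 0 of the 12 member probe sets passed, and 0% of all 22518 tested probe sets did, while 0.48% had an unadjusted p under 0.05 and 0 of the members did. In limma with the title number as a block, 0 of the 12 passed, where 0.862% of all did. The lowest adjusted p of a member in that fit was 0.417, for a dim Arpc2 probe set.

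**Figure D1:**
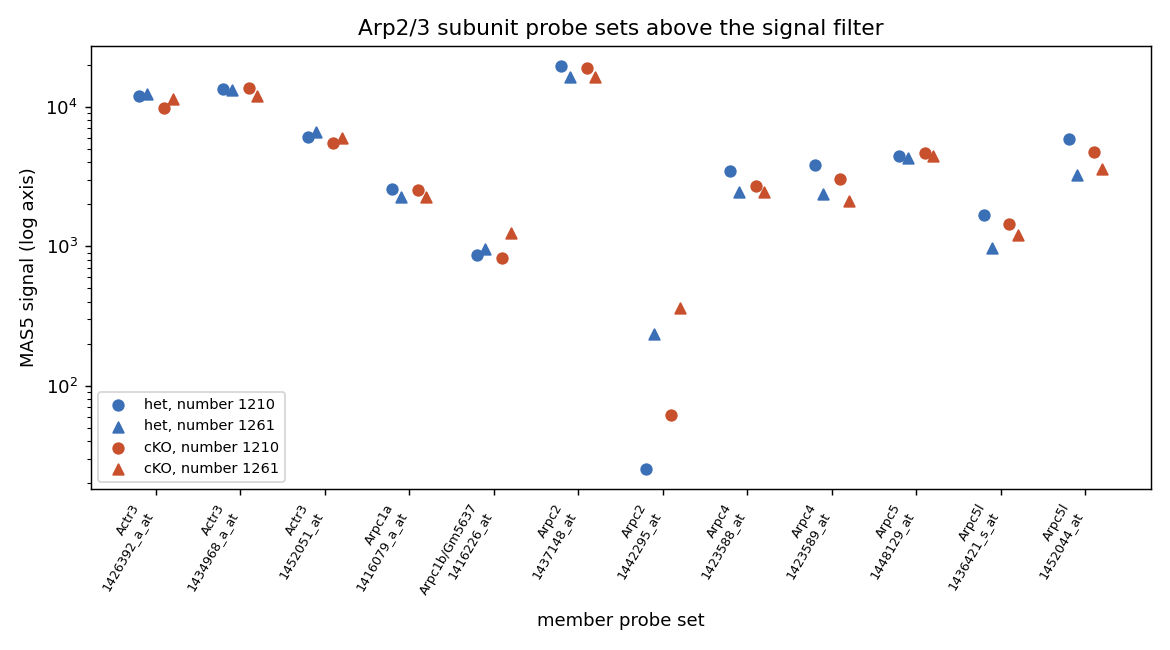
MAS5 signal, on a log axis, of the 12 member probe sets above the filter, by array: blue for het, red for cKO, circles for the first title number and triangles for the second. For most probe sets the 4 arrays lie close together, and the Arpc2 probe set 1442295_at ranges from 25.5 to 361.

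The actin-like subunit Actr3 was read by 3 probe sets. The one with the highest signal (1434968_a_at) had 13422 (het_1210) and 13230 (het_1261) in het, against 13557 (Ko_1210) and 11895 (KO_1261) in cKO. The groups overlapped, with a het mean of 13326 ± 136 and a cKO mean of 12726 ± 1175 (SD, n = 2). The log2 difference was -0.070 ± 0.13 (SE of the fit with the block, as for each ± after a difference below), with a 95% interval of -0.33 to 0.19. The second probe set (1426392_a_at) had 11871 (het_1210) and 12336 (het_1261) in het, against 9736 (Ko_1210) and 11392 (KO_1261) in cKO. Here both cKO arrays lay below both het arrays, and the difference was -0.20 ± 0.13 (limma with the block, adjusted p = 0.70). The third (1452051_at) had 6102 and 6548 in het and 5499 and 5991 in cKO, the first number given first. It too had no overlap, with a difference of -0.14 ± 0.14 (adjusted p = 0.847). All 3 probe sets were thus slightly lower in cKO on average, although the first was at 0.052 under median centring, and the 2 without overlap were lower within both numbers. Of all tested probe sets 10.4% had both cKO arrays below both het arrays.

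Arpc2 and Arpc4 make up the core of the complex. The bright Arpc2 probe set (1437148_at) had 19533 (het_1210) and 16250 (het_1261) in het, against 18947 (Ko_1210) and 16398 (KO_1261) in cKO. The groups overlapped almost fully, the difference was -0.015 ± 0.13, and the 95% interval of the block fit, -0.27 to 0.24, corresponds to a cKO level of 0.829 to 1.18 times that of het. Without the block the interval was wider, at -0.69 to 0.65. Quantile normalization and median centring turned the sign of this difference (0.055 and 0.11). The other Arpc2 probe set (1442295_at) had 25.5 and 61.6 in het_1210 and Ko_1210 and 233.8 and 361 in het_1261 and KO_1261. It was low in both groups with the first number and high in both with the second, and its difference of 0.93 ± 0.39 (1.24 and 0.62 within the numbers) did not pass. On 2 of the 4 arrays its signal lay below the filter, so the size is imprecise, and without het_1210 the difference was -0.64, without KO_1261 -0.33.

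Arpc4 had the largest difference among the 6 genes on the arrays as scaled. Under median centring its difference was -0.12, and that of Arpc5 was larger in size, at 0.18. The promoter of Arpc4 held the CArG box shown above, and a link between the box and the difference was not tested. The Arpc4 probe set 1423589_at had 3817 (het_1210) and 2356 (het_1261) in het, against 3053 (Ko_1210) and 2117 (KO_1261) in cKO. The cKO array was lower within each number (-0.32 and -0.15 on the log2 scale, the first number first, as in each such bracket), but het_1261 lay below Ko_1210, so the groups overlapped. The mean difference was -0.24 ± 0.15, with a 95% interval of -0.55 to 0.074 (limma with the block, adjusted p = 0.695). Without the block the interval was -1.13 to 0.65. The second Arpc4 probe set (1423588_at) had 3433, 2441, 2685 and 2463 in the same order, with a difference of -0.17 ± 0.16 (-0.35 within the first number and 0.013 within the second). For both probe sets the highest value was that of het_1210. Without that array the differences were 0.11 and 0.075.

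Arpc1a, the version of the activator-binding subunit found in most tissues, was close to equal in both groups. Its single probe set (1416079_a_at) had 2567 (het_1210) and 2268 (het_1261) in het, against 2517 (Ko_1210) and 2258 (KO_1261) in cKO. The difference was -0.017 ± 0.16, with a 95% interval of -0.33 to 0.30, and its sign turned under median centring (0.10). The brighter probe set shared by Arpc1b and Gm5637 (1416226_at) had 865.5, 962, 824.3 and 1236 in the same order. Only KO_1261 stood above the rest, and the difference was 0.15 ± 0.18 (-0.070 and 0.36). Arpc1b is the version most abundant in blood cells. The log2 ratio of this probe set to that of Arpc1a differed by -0.042 within the first number and by 0.37 within the second, so no common direction was seen.

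Arpc5 and its alternative Arpc5l also had mean differences near 0. The bright Arpc5 probe set (1448129_at) had 4433 (het_1210) and 4253 (het_1261) in het, against 4631 (Ko_1210) and 4411 (KO_1261) in cKO. On the log2 scale it had the narrowest range over the 4 arrays among the bright member probe sets, with a difference of 0.058 ± 0.14 (0.063 and 0.052) and a 95% interval of -0.23 to 0.35. The brightest Arpc5l probe set (1452044_at) had 5874, 3252, 4756 and 3582 in the same order. Its differences within the numbers had opposite signs, -0.30 and 0.14, with a mean of -0.083 ± 0.15. The next Arpc5l probe set (1436421_s_at) had 1684, 979.2, 1442 and 1201, and again opposite signs, -0.22 and 0.29, with a mean of 0.036 ± 0.18. The log2 ratio of Arpc5l (1452044_at) to Arpc5 differed by -0.37 within the first number and by 0.087 within the second.

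**Figure D2:**
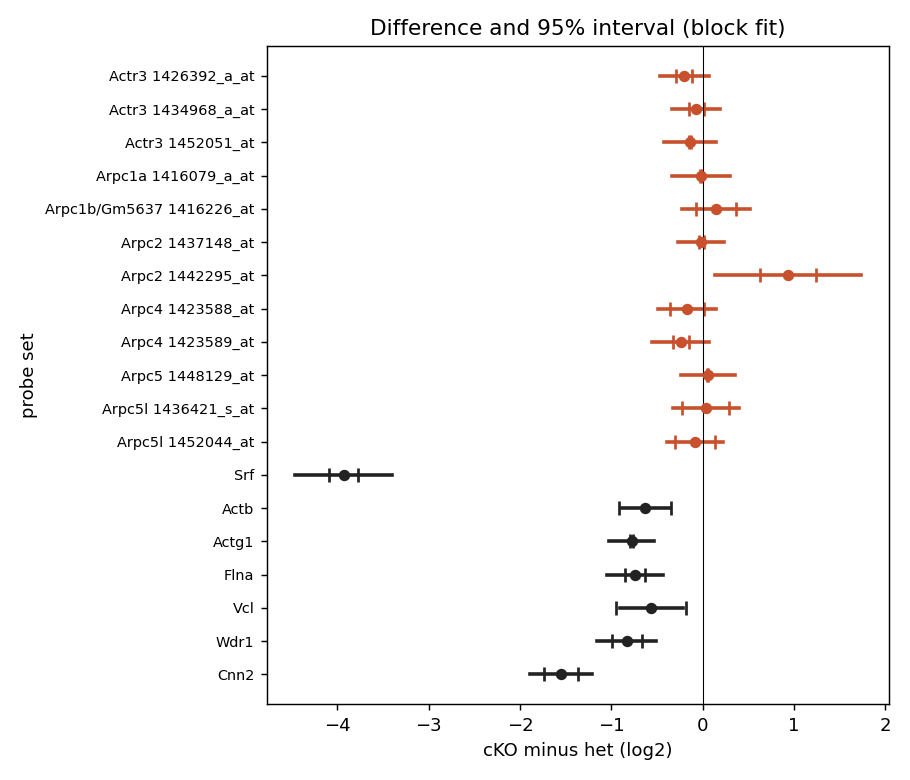
Difference between cKO and het on the log2 scale for the 12 member probe sets (red) and for Srf and 6 known target genes (black). Dots are means, bars the 95% interval of limma with the title number as a block, and ticks the differences within each number. The intervals of 11 member probe sets include 0, and that of the dim Arpc2 probe set 1442295_at lies above 0 (0.13 to 1.73). Those of Srf and the 6 targets lie below 0.

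Differences between the title numbers were larger than those between the groups for most members. Among the 10 probe sets with 1 symbol and a mean het signal of 1000 or more, this held for 8, as for 81.9% of all such probe sets on the array. Arpc5l was 1.55-fold higher with the first number than with the second (1452044_at) and Arpc4 1.53-fold higher (1423589_at). Arpc2 (1437148_at) was 1.18-fold and Arpc1a 1.12-fold higher, while Arpc5 was 1.05-fold higher. The Arpc1b and Gm5637 probe set went the other way, at 0.775-fold, and so did 2 of the 3 Actr3 probe sets, at 0.907-fold (1426392_a_at) and 0.925-fold (1452051_at), and the dim Arpc2 probe set, at 0.14-fold. Over the 6 genes the median difference, second minus first number, was -0.20, and over all tested genes -0.13. The poly-A spike-in controls were also higher with the first number, by 2.41-fold in het and 2.56-fold in cKO. The hybridization spike-in controls were higher with it by 1.99-fold and 1.73-fold. Between the groups, the poly-A controls in cKO were at 0.918 times het within the first number and 0.865 times within the second. For the hybridization controls these values were 0.780 and 0.898. The part of the controls in the differences between numbers or groups was not tested.

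**Figure D3:**
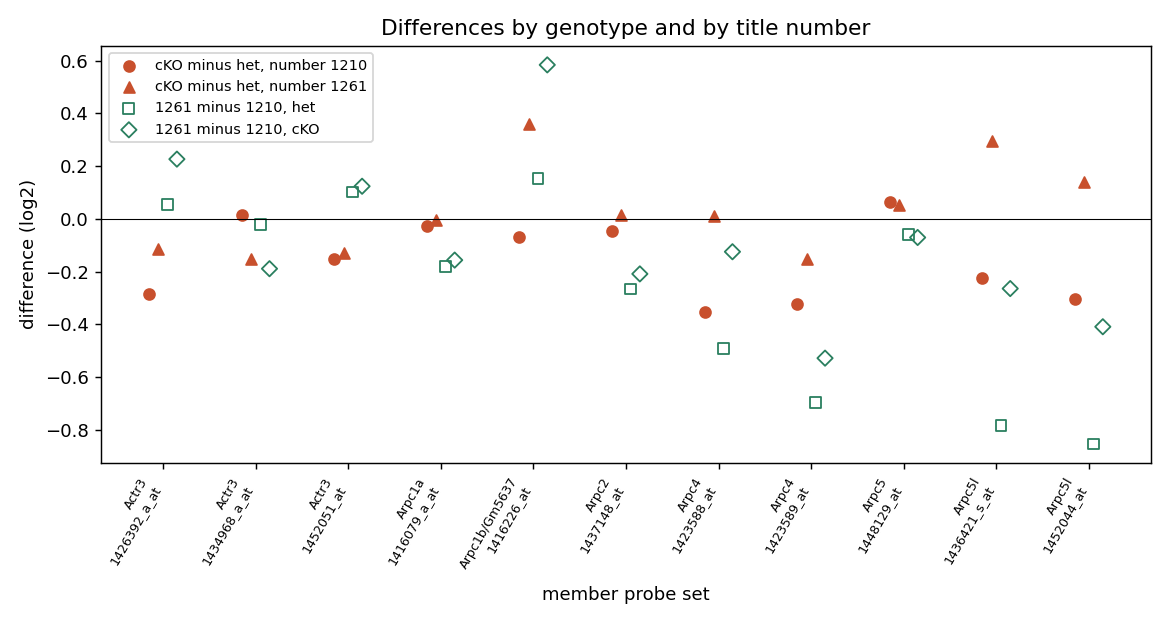
Differences on the log2 scale for the 11 bright member probe sets: cKO minus het within each number (red) and second minus first number within each group (green, open). For Arpc4 and Arpc5l the green points lie as low as -0.85, and the red points lie between -0.35 and 0.36 for all 11.

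The 4 member probe sets below the filter were all lower in both cKO arrays than in both het arrays. Among all probe sets below the filter 20.4% had this pattern. For Arpc5 (1444568_at) the signal was 19.0 (het_1210) and 13.97 (het_1261) in het, against 1.70 (Ko_1210) and 2.33 (KO_1261) in cKO. For Arpc5l it was 97.4, 81.0, 6.44 and 34.4 (1441190_at) and 58.4, 43.9, 38.4 and 40.4 (1444011_at). The dimmer probe set of Arpc1b and Gm5637 (1416227_at) had 88.4, 68.6, 15.99 and 50.1. In the bright probe sets of Arpc5 and Arpc5l the groups overlapped. These signals are near background, were not tested, and give no dependable size.

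Srf, the targeted gene, had a signal of 833.9 (het_1210) and 1108 (het_1261) in het, against 47.9 (Ko_1210) and 80.4 (KO_1261) in cKO, a log2 difference of -3.93 ± 0.26. Whether its probes lie in the floxed part is not known here. Actb, which encodes the β-actin that the complex assembles, fell by 0.63 ± 0.13 (limma with the block, adjusted p = 0.00745, where 0.878% of all genes passed), and Actg1 fell by 0.78 ± 0.12 (adjusted p = 2.95e-04). Neither passed without the block. With Flna, Vcl, Wdr1 and Cnn2 they make up the 6 known target genes, a list chosen with earlier results of these data known. These and Srf, 7 genes, were all lower on both cKO arrays than on both het arrays, as were 10.9% of all tested genes. In limma with the block 6 of the 7 passed, all but Vcl, and 0 passed without it. Since Actb, Actg1 and the members were read on the same arrays, the difference in their ratio does not depend on the scaling to a common mean. The ratio of a member to Actb was higher in cKO for 6 of 6 genes within both numbers, by 0.59 to 0.98 on the log2 scale within the first number and by 0.19 to 0.48 within the second. The same held for 85.9% of all other tested genes. Against Actg1 it was higher for 6 of 6 as well, by 0.44 to 0.82 and by 0.64 to 0.93, as for 92.4% of all other tested genes. These shares are close to the members' own, and the ratios say nothing particular to the complex. All 6 ratios share the same actin values, so they are not independent, and they were not tested.

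**Figure D4:**
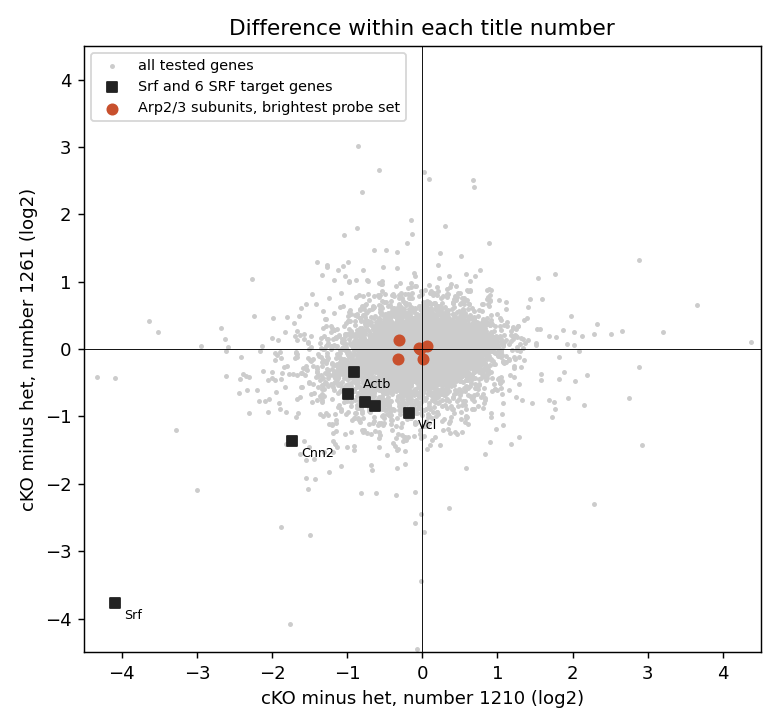
Difference between cKO and het within the first title number (x axis) and within the second (y axis), on the log2 scale, for all tested genes (grey, 3 beyond the plotted range of 4.5), the 6 Arp2/3 genes (red) and Srf with 6 known target genes (black squares). The Arp2/3 genes lie near the origin and the target genes lie below 0 on both axes.

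Genes that act with the complex were described from 7 lists of activators, upstream GTPases and adaptors, branch stabilisers, inhibitors and capping proteins. Of 55 listed genes 52 had a probe set of their own and 42 were tested, of which 0 passed without a block and 0 with it. Of all tested genes 0.878% passed with the block, so few or no calls among 42 genes say little. The median difference of the 42 was -0.032, with 24 lower and 18 higher. This is 57.1% lower, where 53.8% of all tested genes were lower. Quantile normalization also gave 24 lower, and median centring gave 10. Of the WAVE complex, which activates Arp2/3 downstream of Rac, 6 of 11 genes were tested, 3 lower and 3 higher, with 0 lower under median centring and 2 under quantile normalization. Abi2, an adaptor of that complex, had 670.2 (het_1210) and 1326 (het_1261) in het, against 1380 (Ko_1210) and 1614 (KO_1261) in cKO. Both cKO arrays lay above both het arrays, as for 8.17% of all genes, and the difference was 0.66 ± 0.19 (1.04 and 0.28; limma with the block, adjusted p = 0.0885). Nckap1, a scaffold of the same complex, differed by 0.43 ± 0.15 (0.73 and 0.14). Of the WASP family and partners 5 of 7 were tested, 2 lower (1 under median centring) and 3 higher, and the largest differences were those of Jmy, at 0.47 ± 0.18, and Wipf1, at -0.34 ± 0.49. The WASH complex, which acts on endosomes, had 5 of 5 tested, 3 lower (1 under median centring) and 2 higher, with Washc5 at 0.17 ± 0.16 and Washc3 at -0.16 ± 0.17. Among 12 tested GTPases and adaptors, 6 were lower and 6 higher, with 2 lower under median centring and 7 under quantile normalization. The largest difference was that of Rac3, at -0.25 ± 0.18, followed by Baiap2, at -0.14 ± 0.21. Rac1, at 0.072 ± 0.13, and Cdc42, at -0.042 ± 0.13, named after their values were seen, were close to equal. Cortactin (Cttn), which stabilises branches, differed by 0.068 ± 0.14.

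Inhibitors and debranching proteins had 6 of 7 tested genes lower, where 53.8% of all tested genes were lower. Their median was -0.13 (-0.26 within the first number and -0.035 within the second). Under median centring 4 were lower and the median was -0.0080. Coro1c, a coronin that acts on branched filaments, had 1760 and 1428 in het and 1312 and 1038 in cKO, the first number given first. Both cKO arrays lay below both het arrays, as for 10.9% of all genes, and the difference was -0.44 ± 0.17 (-0.42 and -0.46; limma with the block, adjusted p = 0.337). Coro2a differed by -0.60 ± 0.26 (-0.28 and -0.91) and did not pass either. Of the capping proteins 4 of 6 tested were lower, 2 under median centring, with Twf2 (twinfilin 2) at -0.46 ± 0.19 (-0.52 and -0.39) and Carmil1 at 0.19 ± 0.20.

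The genes nearest to Arpc4 in pattern over the 4 arrays, by the root mean square distance of log2 values centred on each gene's mean, were 0610012G03Rik (0.0059), Xrcc1 (0.012), Cars2 (0.014), Psmb1 (0.017) and Hddc2 (0.018). They were picked for this likeness, so being highest on het_1210 and having overlapping groups, like Arpc4, follows from the choice.

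The sorted cells expressed the basal keratinocyte markers Krt5 and Krt14 at signals from 35314 to 59598 in all 4 samples, and 0 of 6 such markers passed. Several marker lists of other cells were lower in cKO: 7 of 9 tested fibroblast markers (median difference -0.62), 3 of 3 tested leukocyte markers (-0.44) and 6 of 8 tested suprabasal markers (-0.42). Of all tested genes 53.8% were lower. Of the 3 leukocyte markers only 1, Laptm5, was lower within both numbers. Cd74 (0.073 and -0.96) and Csf1r (-0.80 and 0.64) had opposite signs. Aif1, a leukocyte marker below the filter, was higher on both cKO arrays (103.6 and 33.3, against 9.46 and 8.22 in het). In limma with the block 3 fibroblast markers (Col3a1, Vim and Twist2), 3 suprabasal markers (Krt1, Krt10 and Sbsn) and 1 leukocyte marker (Laptm5) passed, all lower in cKO, against 0.878% of all genes. None of them passed without the block. Within the numbers the fibroblast median was -0.96 and -0.20. The fibroblast marker Pdgfra was higher on both cKO arrays (91.2 and 154.8, against 58.3 and 84.4 in het), as were 8.17% of all genes. The suprabasal markers Lor (1.68 and -0.75) and Ivl (1.75 and -0.78) had opposite signs within the numbers, with mean differences of 0.47 and 0.48. The summed signal of 11 leukocyte markers was 889 to 913 in het and 526 to 729 in cKO, that of 9 fibroblast markers 59547 to 67138 and 54131 to 54797 (most of it Dcn and Postn, which differed by 0.058 and -0.10), and that of 9 suprabasal markers 91189 to 143343 and 72408 to 90123. The 7 melanocyte markers summed to 726 to 1314 in het and 707 to 723 in cKO, and the 6 endothelial markers to 451 to 508 and 334 to 348. Of the leukocyte markers 8 of 11 lay below the filter, Ptprc among them, with 24.6 to 35.7 in het and 23.6 to 25.3 in cKO. Blood cell relatives of the Arp2/3 regulators, Was, Nckap1l, Hcls1, Coro1a and Rac2, also lay below it. The part of these cells in the values of the members was not tested. Fewer cells of a type and less RNA per cell cannot be told apart in such samples.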

How the data were processed

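Total RNA (Trizol) was labelled with biotin in a 3' IVT reaction, per the labels' protocols. The authors deposited array intensity values, 1 per probe set and array, computed with MAS5 according to the submitters' processing notes. The MAS5 version is not given in those notes. The 2% trimmed mean was 500 on all 4 arrays, so only changes relative to it are seen. Median signals were 63.7 to 82.5. The 64 controls were left out. Symbols were updated by Entrez identifier: 34945 probe sets had 1 symbol, 932 several and 9160 none.

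Values were analysed as log2(signal + 1). The brighter part of the probe sets, split at the median of their mean log2 values, was tested with limma 3.58.1 in R 4.3.3 (trended eBayes, two-sided). P-values were adjusted by Benjamini-Hochberg over all 22518 tested probe sets, with a threshold of 0.05. The fit without a block had 2 residual degrees of freedom. The fit with the title number as a block had 1, with 34.4 prior degrees of freedom, so its standard errors come mainly from other probe sets and can be smaller than the spread between arrays. Deviations of same-numbered arrays from their group means correlated at 0.755, but no label states that the numbers pair animals. The block was an alternative planned because the titles share numbers. Its standard errors are printed beside the differences. The pipeline was tested on simulated data.

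The members and lists were chosen with earlier results of these data known. A gene was represented by its brightest probe set, with the mean of its tested probe sets as an alternative. All member probe sets were named. From each list the genes that passed were named, or else the 2 tested genes with the largest absolute difference. Pattern likeness was taken for the member gene with the largest difference. Figures used matplotlib 3.10.9.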

Additional observations from a re-analysis of the deposited data

How the results depend on the processing

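In each of the 13 other fits run (with the block, with median centring or quantile normalization, pseudocount 16, other filters, or 1 array left out) 0 member probe sets passed. Over all probe sets, 0 passed without the block, 194 with the title number as a replicate block, 84 with the block and a robust prior, 0 with the block and no variance trend, 109 with the block and median centring, and 0 to 5 with 1 array left out. Median centring, without or with the block, moved the members' median difference from -0.043 to 0.079 and left 1 gene lower, with all tested genes at 0.098. Taking the mean of all tested probe sets of a gene in place of the brightest gave a median of -0.020, with 4 genes lower. Median centring turned the sign of Actr3 1434968_a_at (0.052), Arpc1a (0.10), Arpc2 1437148_at (0.11, and 0.055 with quantile normalization) and Arpc5l 1452044_at (0.039). With 1 array left out, the numbers are unbalanced between the groups and the lone sample is assumed to vary like the others. The members' median then ranged from -0.14 without Ko_1210 to 0.099 without het_1210, and 0 to 5 genes were lower. Signs turned in some of these fits: the differences ranged from -0.16 to 0.025 for Actr3 1434968_a_at, -0.11 to 0.072 for Arpc1a, -0.15 to 0.12 for Arpc2 1437148_at, -0.64 to 2.51 for Arpc2 1442295_at, -0.42 to 0.075 for Arpc4 1423588_at, -0.59 to 0.11 for Arpc4 1423589_at, -0.36 to 0.43 for Arpc5l 1436421_s_at, -0.51 to 0.34 for Arpc5l 1452044_at and -0.15 to 0.44 for the Arpc1b and Gm5637 probe set. The sign held for the other 3, which ranged from -0.31 to -0.087 (Actr3 1426392_a_at), -0.20 to -0.077 (Actr3 1452051_at) and 0.023 to 0.093 (Arpc5 1448129_at). With 2 arrays a group, differences within the intervals given could not be told from 0.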

Other observations

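Nucleators that work without Arp2/3 also had 0 genes that passed, where 0.878% of all genes did with the block. Of 9 tested formins and other nucleators, which start unbranched filaments, 6 were higher and 3 lower, 2 under median centring. Of all tested genes 53.8% were lower. The median of the 9 was 0.13 (0.20 within the first title number and 0.023 within the second). The fit was limma with the block. Fmnl2 differed by 0.32 ± 0.19 and Diaph2 by 0.31 ± 0.21, both mainly within the first number (0.55 and 0.091, 0.61 and 0.0037).

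Actin-related proteins of other complexes were lower for 5 of 5 tested genes, where 53.8% of all tested genes were lower. Under median centring 3 of them were lower. Their median was -0.12, and 0 passed in limma with the block (97 of all 11053 tested genes did). Actr1a, the actin-like subunit of dynactin, had 3535 and 3046 on the het arrays and 2879 and 2469 on the cKO arrays. Both cKO arrays lay below both het arrays, as for 10.9% of all tested genes. The difference was -0.30 ± 0.15 and was alike within the numbers (-0.30 and -0.30). Actr5, a subunit of a chromatin remodelling complex, differed by -0.32 ± 0.24 (-0.52 and -0.13).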
